A study of Mus musculus with 5 samples.

Results

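Chemokines and chemokine receptors are described here as the 48 genes whose platform symbol starts with Ccl, Cxcl, Ccr, Cxcr, Cx3cl, Cx3cr, Xcl or Xcr and a digit. They were measured by 52 of the 29922 probes, among 16637 named genes, and for genes with several probes the brightest on average was taken. There were 32 ligands and 16 receptors. Cxcl4 is called Pf4 and Cxcr7 is called Ackr3 below, their current symbols in RefSeq.

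Chemokines are small secreted proteins that draw leukocytes along a gradient, and their receptors are G protein-coupled receptors on the leukocyte surface. Ligands with adjacent first cysteines (CC) mostly attract monocytes, lymphocytes and eosinophils. Ligands with 1 residue between those cysteines (CXC) attract mainly neutrophils or, in the interferon-induced branch, activated T cells. In fatty liver, Kupffer cells, stellate cells, endothelium and hepatocytes make them, and CCL2 with its receptor CCR2 is best known for bringing monocytes into the obese liver.

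Liver RNA was hybridised in 1 colour (Cy5) to Phalanx Mouse OneArray slides, with 1 array for each of 5 groups, all of C57BL/6 background. Wild-type (WT) mice received high-fat diet (HFD) with nordihydroguaiaretic acid (NDGA, a plant lignan that inhibits lipoxygenases) at 2.5 g per kg food, HFD alone, or chow. Leptin-deficient ob/ob mice, which carry the obese mutation in every cell, received chow with the same NDGA dose or chow alone. All diets ran for 16 weeks, and RNA of 3 animals was used per group, but the sources used here do not give age or whether the RNA was pooled. With 1 array per group no spread between mice is known, no test was possible, and each difference below is between 2 arrays. The arrays are called HFD+NDGA, HFD, ob/ob+NDGA, ob/ob and WT chow below.

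The arrays differed in overall brightness, with a deposited median intensity of 71.0 for ob/ob on chow with NDGA and 38.1 to 47.0 for the other 4. Values are therefore given after quantile normalisation, in arbitrary intensity units. Differences are of log2(normalised intensity + 50), a scale that understates the change of dim probes. The only technical yardstick came from genes with 2 probes whose mean was at or above the median of all deposited values. That cut is lower than the background line used below. Their SD per probe was 0.29 to 0.45 on this scale, and the 2 probes correlated across genes at only 0.29 to 0.34. The liver label was checked with hepatocyte markers: Alb read between 63259 and 65860 on the 5 arrays, at the limit of the scanner, and 9 of 10 such markers were above background. Skeletal muscle markers differed between arrays, most on HFD+NDGA against HFD. Of 18, 12 read at least 2-fold higher on HFD+NDGA than on HFD, against 0.493% of all genes (summed intensity 13504 against 2864). In ob/ob+NDGA 5 read at least 2-fold higher than in ob/ob, against 3.78% of all genes (sums of 4623 against 3734). Arrays without NDGA differed too. On HFD against WT chow 1 was higher (Tnnt3, 1.16% of all genes) and 2 lower (Myh2 and Tnnc2, 0.691%). In ob/ob against WT chow the same 1 was higher (0.595%) and the same 2 lower (0.986%).

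Most of the chemokine system was not measurable above background. A probe was called near background on an array when it lay under the 90th percentile of 802 probes for olfactory and vomeronasal receptors, which liver is not known to use. That percentile was at 321 on HFD+NDGA, 226 on HFD, 190 in ob/ob+NDGA, 275 in ob/ob and 285 on WT chow. Of the 48 genes, 35 (72.9%) were near background on all 5 arrays, against 61.5% of all named genes, and 24 (50%) never reached an intensity of 50, against 35.4%. The 9 at or above background on every array (18.8%, against 26.3% of all named genes) were all ligands: Ccl1, Ccl9, Ccl11, Ccl22, Cxcl1, Cxcl9, Cxcl10, Cxcl14 and Cxcl16. Another 4 (8.33%, against 12.2%) passed on some arrays, Ccl24 on 4, Ccl6 on 3, and the receptors Ccr8 and Cxcr3 on 2 each. In tissue RNA, fewer cells of a type and less RNA per cell cannot be told apart.

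The sequences upstream of 4 CXC ligand genes are shown. Cxcl1 was at least 2-fold apart with HFD and with NDGA on HFD, as given below. Its neighbours Cxcl2 and Cxcl3 share a motif with it, while Cxcl10 adds an interferon element. The largest difference of any member was that of Ccl1 (-1.61 with HFD), whose upstream sequence, not shown, held 0 matches. The sequences are the 250 bases before the start site from RefSeq (GRCm38.p6), 5′ to 3′ on the gene's strand. Capitals mark matches to the NF-kB consensus, AP-1 (TGANTCA), the interferon-stimulated response element and the TATA box (TATAAA), searched on both strands.
Cxcl1 (chr5:90890995-90891244, plus strand): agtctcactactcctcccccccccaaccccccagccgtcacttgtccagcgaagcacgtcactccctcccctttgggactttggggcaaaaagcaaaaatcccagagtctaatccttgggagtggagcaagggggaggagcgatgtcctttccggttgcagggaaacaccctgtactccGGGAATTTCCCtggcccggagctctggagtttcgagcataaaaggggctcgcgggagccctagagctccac
Cxcl2 (chr5:90903649-90903898, plus strand): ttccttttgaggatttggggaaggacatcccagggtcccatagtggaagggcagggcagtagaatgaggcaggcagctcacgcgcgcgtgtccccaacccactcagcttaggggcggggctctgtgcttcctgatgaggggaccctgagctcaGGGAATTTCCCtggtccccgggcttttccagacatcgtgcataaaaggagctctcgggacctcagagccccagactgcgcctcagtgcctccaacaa
Cxcl3 (chr5:90785851-90786100, plus strand): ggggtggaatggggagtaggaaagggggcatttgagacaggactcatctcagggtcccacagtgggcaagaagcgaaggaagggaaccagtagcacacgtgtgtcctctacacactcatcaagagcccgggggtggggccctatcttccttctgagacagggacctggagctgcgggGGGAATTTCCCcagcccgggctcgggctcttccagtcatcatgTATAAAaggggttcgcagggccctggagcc
Cxcl10 (chr5:92348890-92349139, minus strand): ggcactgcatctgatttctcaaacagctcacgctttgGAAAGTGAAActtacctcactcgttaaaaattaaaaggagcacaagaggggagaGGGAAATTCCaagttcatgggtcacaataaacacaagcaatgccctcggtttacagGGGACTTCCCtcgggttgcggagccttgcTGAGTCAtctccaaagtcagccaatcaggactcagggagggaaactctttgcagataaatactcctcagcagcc
The same stretch, GGGAATTTCCC, occurs in Cxcl1 (first base at -71 from the start site), Cxcl2 (-97) and Cxcl3 (-73), where the NF-kB consensus matches on both strands with overlapping matches. Cxcl10 holds 2 such matches (GGGAAATTCC and GGGACTTCCC), an interferon-stimulated element and an AP-1 match. RefSeq windows of 300 bases, 250 before to 50 after the start, were found for 36 of the 48 genes, which had 38 windows. The NF-kB consensus lay in 8 of the 38 windows, from 8 genes (Ccl9, Ccl20, Ccr3, Ccr6, Cxcl1, Cxcl2, Cxcl3 and Cxcl10), against 4.51% of all 32851 windows. AP-1 lay in 6 (7.81% of all windows), the interferon-stimulated element in 2, those of Cxcl10 and Cxcl14 (3.44%), and the TATA box in 13 (13.6%). A match describes letters only and says nothing of binding.

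Counted over all 48 members, few differed at least 2-fold, and the medians lay near 0. With HFD against chow 2 were higher (Cxcl1 and Ccl4), where 1.16% of all genes were, and 1 was lower (Ccl1), where 0.691% were; the median was -0.02. With NDGA on HFD against HFD 0 were higher (0.493% of all genes) and 2 lower (Cxcl1 and Ccl4, 0.835% of all genes), with a median of -0.03. In ob/ob against WT chow 2 were higher (Ccl4 and Ccl6, 0.595% of all genes) and 0 lower (0.986%), with a median of 0.02. With NDGA in ob/ob 1 was higher (Pf4, 3.78% of all genes) and 0 lower (0.283%), with a median of -0.10 against -0.02 for all genes. Each count rests on at most 2 genes, and Ccl4 and Pf4 were near background on both sides. HFD against chow shares the HFD array with NDGA on HFD and the WT chow array with ob/ob against WT, and both ob/ob comparisons share the ob/ob array.

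**Figure D1:**
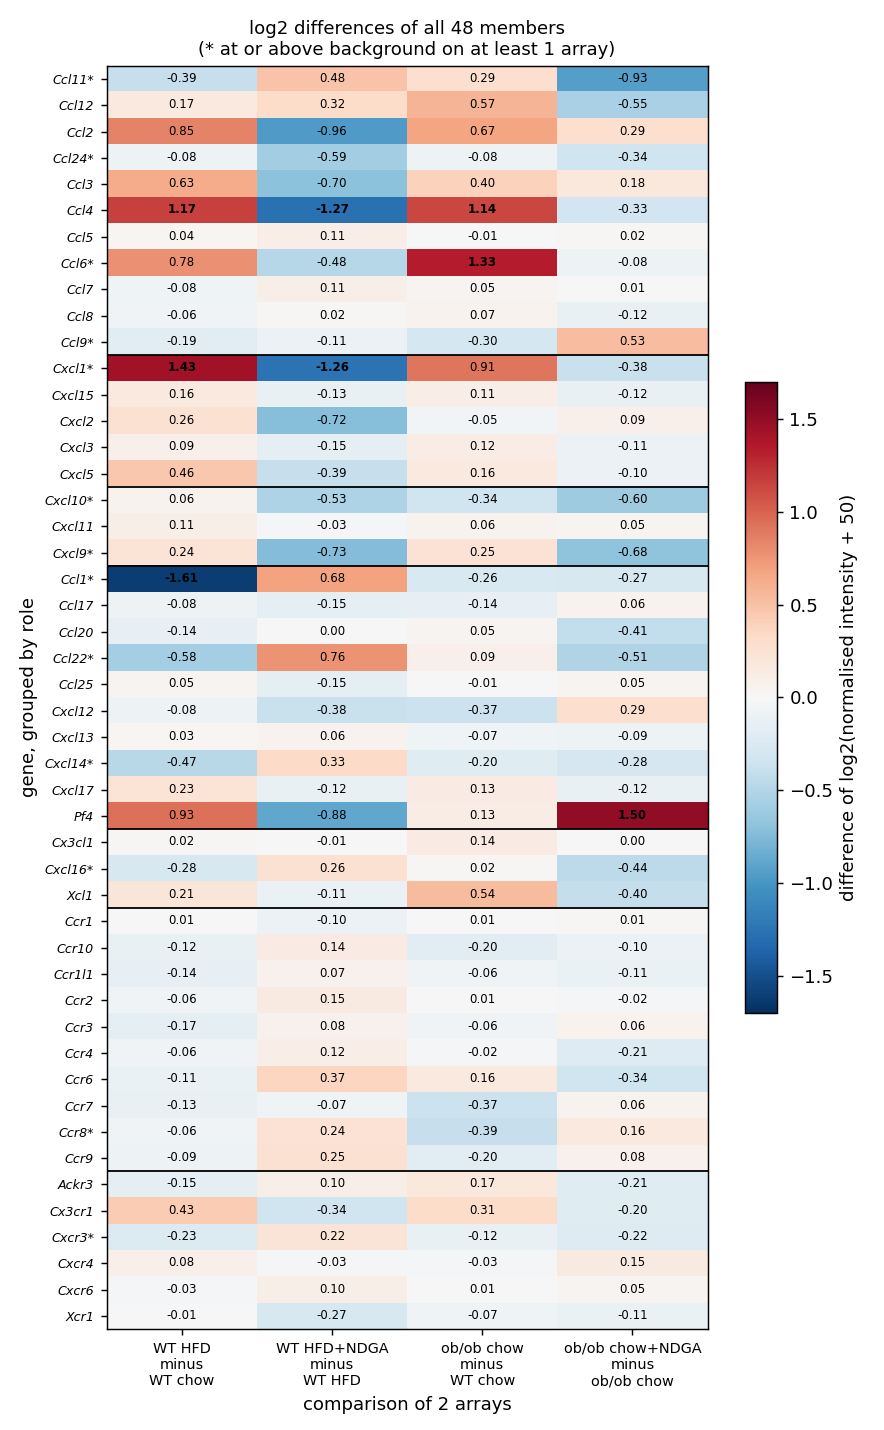
Differences of log2(normalised intensity + 50) between 2 arrays (colour and printed value) for all 48 members (rows, grouped by role) in the 4 comparisons (columns); bold marks at least 2-fold. The 8 bold values are Cxcl1 (1.43), Ccl4 (1.17) and Ccl1 (-1.61) with HFD, Cxcl1 (-1.26) and Ccl4 (-1.27) with NDGA on HFD, Ccl6 (1.33) and Ccl4 (1.14) in ob/ob, and Pf4 (1.50) with NDGA in ob/ob.

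Among ligands for neutrophils, Cxcl1 was higher on HFD than on chow, and lower on HFD+NDGA than on HFD. CXCL1 (KC) acts through CXCR2. Its normalised intensity was 731 on HFD+NDGA, 1821 on HFD, 955 in ob/ob+NDGA, 1255 in ob/ob and 642 on WT chow. The HFD array was the highest, and the WT chow and HFD with NDGA arrays were the lowest 2. HFD against chow gave a log2 difference of 1.43 (2.70-fold, rank 47 from the highest of 16637 genes), and NDGA on HFD against HFD gave -1.26 (2.39-fold lower, rank 55 from the lowest). These 2 comparisons share the HFD array; HFD with NDGA against WT chow, a comparison added after the values were seen, gave 0.17. The ob/ob against WT chow difference was 0.91 (0.66 without normalisation), short of 2-fold. The part of the skeletal muscle markers, higher on HFD+NDGA, in this and the other NDGA differences was not tested.

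**Figure D2:**
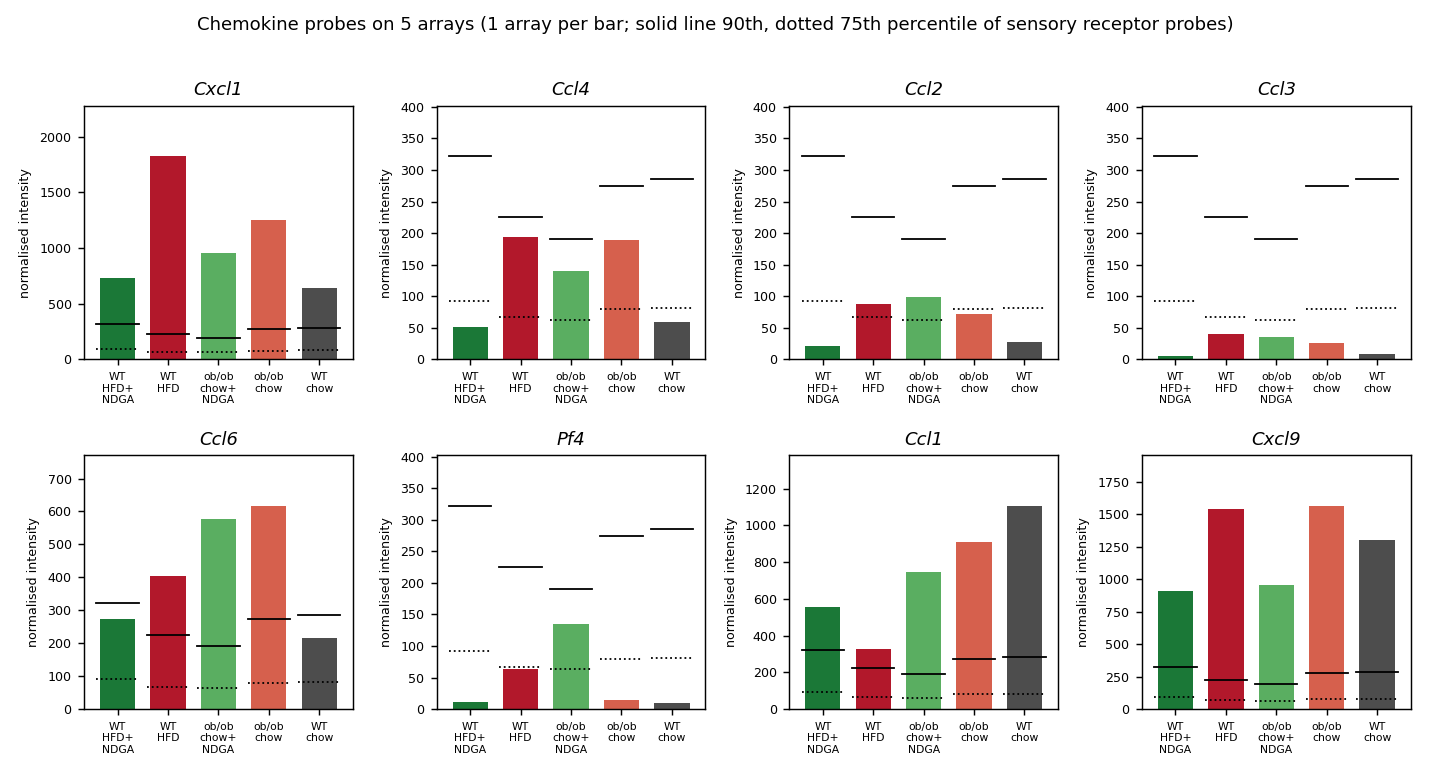
Normalised intensity (y axis, arbitrary units, linear from 0) of 8 chemokine probes on the 5 arrays (x axis), 1 array per bar; solid and dotted lines are the 90th and 75th percentiles of olfactory and vomeronasal receptor probes on that array. Cxcl1 stood above both lines on every array and was highest on the HFD array (1821), whereas Ccl4, Ccl2, Ccl3 and Pf4 stayed under the solid line throughout.

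The other CXC ligands for neutrophils were near background. Cxcl2 (MIP-2), also a CXCR2 ligand, read 62.6 on HFD+NDGA, 136 on HFD, 110 in ob/ob+NDGA, 101 in ob/ob and 106 on WT chow. Its log2 differences of -0.72 for NDGA on HFD and 0.26 for HFD lay between values near background, so no order is read. Cxcl5 ranged from 12.4 to 36.0, and Cxcl3 and Cxcl15 never passed 10.4. Of 12 neutrophil markers 10 were named and 2 were above background on any array. Their summed intensity was 1388 on HFD+NDGA, 1285 on HFD, 1238 in ob/ob+NDGA, 1567 in ob/ob and 1397 on WT chow. S100a8, a calcium-binding protein of neutrophils and monocytes, was the 1 marker of 10 with a log2 difference of at least 1. It was higher with HFD (1.16% of all genes were) and in ob/ob (0.595%). It was near background on every array, at 143 on HFD and 157 in ob/ob against 28.8 on WT chow. Its partner S100a9 stayed between 1.16 and 7.35.

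Among the inflammatory CC ligands, Ccl4 and Ccl6 had log2 differences of at least 1 in size, with 1 or both sides near background. CCL4 (MIP-1 beta) is a monocyte and T cell attractant made by activated macrophages and lymphocytes. Ccl4 read 51.2 on HFD+NDGA, 195 on HFD, 141 in ob/ob+NDGA, 190 in ob/ob and 58.9 on WT chow. The 3 high arrays lay above the 75th percentile of the olfactory and vomeronasal probes and the other 2 below it, but all 5 were under the 90th. Because both sides were near background, its log2 differences of 1.17 for HFD, -1.27 for NDGA on HFD, 1.14 in ob/ob and -0.33 for NDGA in ob/ob are given without a fold; the last was 0.30 without normalisation.

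Ccl3 and Ccl2 were near background on every array. In the RefSeq gene table the spans of Ccl3 and Ccl4 overlap, and whether their probes are separate is not known here. CCL3 (MIP-1 alpha) binds CCR1. It read 5.49 on HFD+NDGA, 39.8 on HFD, 36.2 in ob/ob+NDGA, 26.3 in ob/ob and 7.94 on WT chow. Ccl2 (MCP-1) read 21.0 on HFD+NDGA, 88.0 on HFD, 99.6 in ob/ob+NDGA, 72.2 in ob/ob and 26.8 on WT chow. At these levels no order is read. Ccl2 had log2 differences of 0.85 for HFD, -0.96 for NDGA on HFD, 0.67 in ob/ob and 0.29 for NDGA in ob/ob, all between values near background.

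Ccl6 (C10), a CCR1 ligand known in mouse, read 274 on HFD+NDGA, 403 on HFD, 578 in ob/ob+NDGA, 616 in ob/ob and 215 on WT chow. Both ob/ob arrays were higher than the 3 WT arrays. ob/ob against WT chow gave a log2 difference of 1.33, at least 1.99-fold, a bound because the WT chow value was near background and was set to that array's 90th percentile. HFD against chow (0.78) and NDGA on HFD (-0.48) were each set against a value near background, so no fold is given. Ccl9 (MIP-1 gamma), the neighbouring CCR1 ligand, was above background on every array. It read 3606 on HFD+NDGA, 3884 on HFD, 5206 in ob/ob+NDGA, 3587 in ob/ob and 4423 on WT chow. Its NDGA difference in ob/ob was 0.53, but 1.55 without normalisation and 1.10 after median centring, so its size there is not settled.

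Macrophage markers are given beside Ccl4, Ccl6 and Cxcl1. Of 18 listed markers 17 were named and 14 were above background on at least 1 array. Their summed intensity was 7228 on HFD+NDGA, 12968 on HFD, 15206 in ob/ob+NDGA, 16398 in ob/ob and 8568 on WT chow. At a 2-fold difference, 5 of 17 were higher on HFD (1.16% of all genes) and 0 lower (0.691%). With NDGA on HFD 5 were lower (0.835% of all genes) and 0 higher (0.493%). In ob/ob 4 were higher (0.595% of all genes) and 0 lower (0.986%). With NDGA in ob/ob 3 were higher (3.78% of all genes) and 0 lower (0.283%). Mpeg1, a pore-forming protein of macrophages, had the largest fall of the list with NDGA on HFD. It read 279 on HFD+NDGA, near background, against 853 on HFD. The list's median log2 difference there was -0.77, and Itgam was at 0.27. The macrophage sum was highest in ob/ob and Cxcl1 was highest on HFD. With NDGA in ob/ob the macrophage list had a median log2 difference of 0.02, and Adgre1, Mpeg1 and Mrc1 were its 3 higher markers. Cxcl1 was there at -0.38, Ccl4 at -0.33 and Ccl6 at -0.08. Without normalisation these 3 chemokines were at 0.54, 0.30 and 0.76, so no direction is read for them. Whether these markers have a part in the chemokine differences was not tested.

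**Figure D3:**
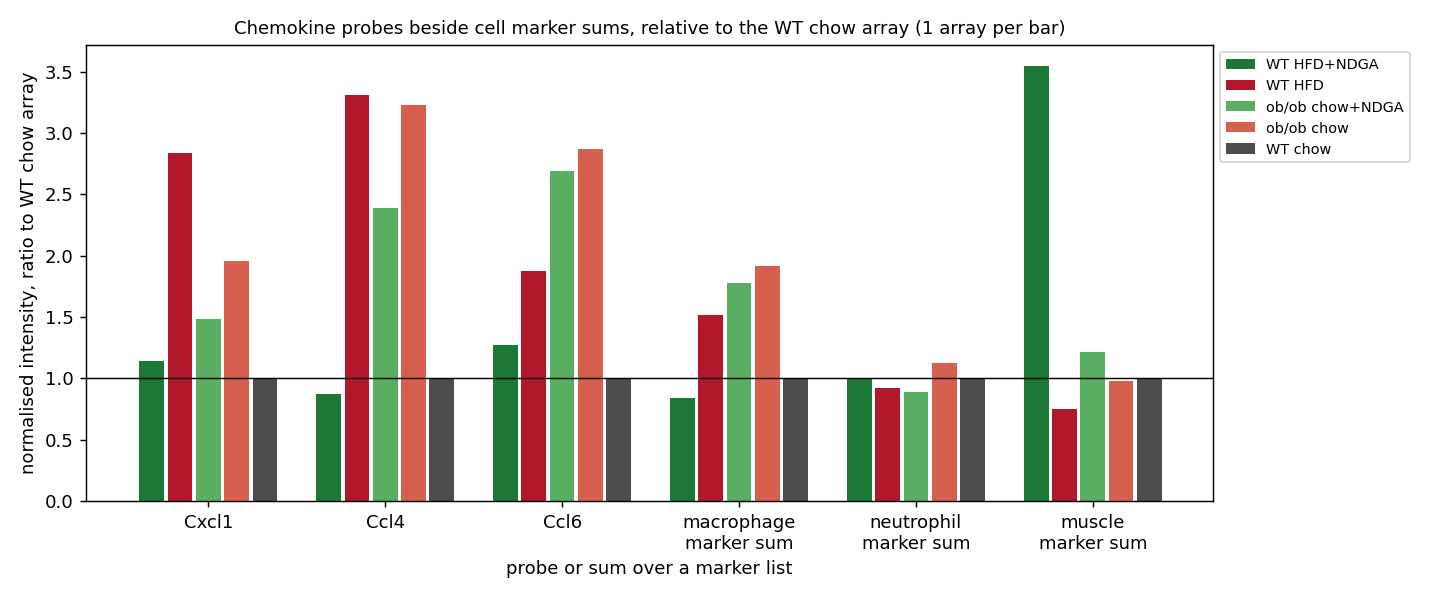
Normalised intensity of 3 chemokine probes and summed normalised intensity of 3 marker lists, each as a ratio to the WT chow array (y axis, linear from 0), with 1 bar per array. The macrophage sum was at 1.51 on HFD and 0.84 on HFD+NDGA, and the neutrophil sum lay between 0.89 and 1.12; the muscle sum was high on the HFD with NDGA array (3.54).

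The eosinophil ligands and the remaining inflammatory CC ligands were less than 2-fold apart. Ccl11 (eotaxin) read 1246 on HFD+NDGA, 879 on HFD, 727 in ob/ob+NDGA, 1435 in ob/ob and 1167 on WT chow. Its largest difference, -0.93 for NDGA in ob/ob, was -0.03 without normalisation. Ccl24 (eotaxin-2), made by macrophages, read 191 on HFD+NDGA, 312 on HFD, 236 in ob/ob+NDGA, 312 in ob/ob and 333 on WT chow, and was lowest with NDGA on HFD (-0.59). Ccl12, a CCR2 ligand of mouse, ranged from 73.2 to 133. Ccl5, a T cell and macrophage attractant, read 10.9 on HFD+NDGA, 6.53 on HFD, 5.57 in ob/ob+NDGA, 4.70 in ob/ob and 5.13 on WT chow, and Ccl7 and Ccl8 never passed 5.51.

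Among the interferon-induced ligands, Cxcl9 and Cxcl10, which attract T cells through CXCR3, were lower on the HFD with NDGA array than on the HFD array. Cxcl9 read 908 on HFD+NDGA, 1543 on HFD, 954 in ob/ob+NDGA, 1562 in ob/ob and 1304 on WT chow. Its second probe read 478 on HFD+NDGA, 1466 on HFD, 1030 in ob/ob+NDGA, 1066 in ob/ob and 893 on WT chow. NDGA on HFD gave log2 differences of -0.73 on the chosen probe and -1.52 on the second, while HFD against chow gave 0.24 and 0.68. In ob/ob the probes disagreed on NDGA, at -0.68 and -0.05.

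Cxcl10 read 801 on HFD+NDGA, 1177 on HFD, 563 in ob/ob+NDGA, 881 in ob/ob and 1130 on WT chow. It was lower with NDGA on HFD by a log2 difference of -0.53, and HFD against chow was at 0.06. With NDGA in ob/ob it was at -0.60, but at 0.26 without normalisation, and Cxcl9 at 0.22, so no direction is read there. Cxcl11, annotated as a transcribed pseudogene in the RefSeq table of C57BL/6J, stayed between 3.85 and 8.28. Irf1, an interferon-induced transcription factor from the list of chemokine inducers, read 2355 on HFD+NDGA against 3131 on HFD (-0.40). The other interferon genes and factors of that list were at -0.21 (Irf3), -0.04 (Irf7), -0.14 (Ifnb1, near background) and 0.05 (Ifng) in that comparison. Their part in Cxcl9 and Cxcl10 was not tested.

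Ccl1 was the 1 member at least 2-fold lower with HFD. CCL1 is the ligand of CCR8 and is made by activated T cells and mast cells. It read 555 on HFD+NDGA, 328 on HFD, 746 in ob/ob+NDGA, 912 in ob/ob and 1104 on WT chow. The HFD array was the lowest, with a log2 difference of -1.61 against chow (3.05-fold lower, rank 25 from the lowest), and NDGA on HFD gave 0.68. Ccl22, a CCR4 ligand of dendritic cells and macrophages, went the same way, at 606 on HFD+NDGA, 337 on HFD, 381 in ob/ob+NDGA, 564 in ob/ob and 527 on WT chow (0.76 for NDGA on HFD, -0.58 for HFD). The 90th percentile of the olfactory and vomeronasal probes was also higher on the HFD with NDGA array than on the HFD array (321 against 226) and lower on the HFD array than on WT chow (226 against 285); its part in the values of Ccl1 and Ccl22 was not tested.

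Pf4 encodes platelet factor 4, stored in platelet granules. It read 11.8 on HFD+NDGA, 63.6 on HFD, 134 in ob/ob+NDGA, 15.0 in ob/ob and 9.43 on WT chow. NDGA in ob/ob gave a log2 difference of 1.50, but all 5 values were near background, so no fold is given. Of the 7 platelet markers listed, Pf4 included, no other was 2-fold apart in that comparison, where 3.78% of all genes were higher and 0.283% lower. The sum of the 7 was 1042 in ob/ob+NDGA against 1216 in ob/ob. The muscle markers Ckm (223 in ob/ob+NDGA against 13.6 in ob/ob) and Mb (176 in ob/ob+NDGA against 42.3 in ob/ob) were also higher there, and their part was not tested.

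Other tissue ligands were less than 2-fold apart in every comparison. Cxcl14, an epithelial ligand, read 684 on HFD+NDGA, 534 on HFD, 527 in ob/ob+NDGA, 652 in ob/ob and 759 on WT chow. Its second probe, near background, differed in sign in 3 of the 4 comparisons (0.21 against -0.47 for HFD). Cxcl16, a membrane-bound ligand of CXCR6, read 1122 on HFD+NDGA, 932 on HFD, 840 in ob/ob+NDGA, 1158 in ob/ob and 1142 on WT chow, and no difference passed 0.44 in size. Its second probe, also near background, differed in sign in 3 of 4. Cxcl12, the CXCR4 ligand that holds blood cell precursors in marrow, read 68.1 on HFD+NDGA, 104 on HFD, 104 in ob/ob+NDGA, 76.2 in ob/ob and 113 on WT chow, all near background. Cx3cl1 (fractalkine) read 76.8 on HFD+NDGA, 77.4 on HFD, 88.3 in ob/ob+NDGA, 88.2 in ob/ob and 75.6 on WT chow. Xcl1, a ligand of lymphocytes for XCR1, ranged from 81.8 to 142. Cxcl13, the B cell attractant, read 15.5 on HFD+NDGA, 12.8 on HFD, 5.24 in ob/ob+NDGA, 8.64 in ob/ob and 11.5 on WT chow. Ccl25, the CCR9 ligand of thymus and gut, read 10.9 on HFD+NDGA, 17.7 on HFD, 17.2 in ob/ob+NDGA, 14.9 in ob/ob and 15.5 on WT chow. Both were near background throughout. Ccl17 and Cxcl17 stayed at or under 15.1, and Ccl20, the CCR6 ligand, ranged from 61.1 to 97.8.

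Of the 16 receptors, 14 were near background on all 5 arrays. None was 2-fold apart, and 0.283% to 3.78% of all genes were in any 1 comparison and direction, so nothing is read from that count. Ccr2, the monocyte receptor of CCL2, read 7.20 on HFD+NDGA, 1.61 on HFD, 3.67 in ob/ob+NDGA, 4.33 in ob/ob and 3.89 on WT chow. These values have no usable order. Ccr1, a receptor of monocytes and neutrophils, read 2.97 on HFD+NDGA, 6.68 on HFD, 7.23 in ob/ob+NDGA, 6.65 in ob/ob and 6.45 on WT chow. Ccr7, which guides lymphocytes and dendritic cells to lymph nodes, read 19.1 on HFD+NDGA, 22.7 on HFD, 14.2 in ob/ob+NDGA, 11.7 in ob/ob and 29.6 on WT chow. Both stayed near background. Cxcr4 read 7.56 on HFD+NDGA, 8.93 on HFD, 10.5 in ob/ob+NDGA, 4.48 in ob/ob and 5.70 on WT chow. Cxcr6, a receptor of T and NKT cells, read 4.10 on HFD+NDGA, 0.396 on HFD, 3.61 in ob/ob+NDGA, 1.72 in ob/ob and 1.51 on WT chow. Xcr1, a dendritic cell receptor, lay between 4.04 and 15.4. Cx3cr1, the fractalkine receptor of monocytes and microglia, was also near background, at 36.9 on HFD+NDGA, 59.7 on HFD, 37.7 in ob/ob+NDGA, 51.0 in ob/ob and 31.4 on WT chow.

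Cxcr3, the receptor of CXCL9 and CXCL10, read 273 on HFD+NDGA, 227 on HFD, 206 in ob/ob+NDGA, 248 in ob/ob and 275 on WT chow, close to each array's background line. Ccr8 lay between 194 and 311, Ccr4 between 76.1 and 104, and the scavenger receptor Ackr3 between 7.62 and 22.1. Ccr3, Ccr6, Ccr9, Ccr10 and Ccr1l1 stayed under 50. Outside the symbol rule, and looked up after the values were seen, the probes named Il8ra (Cxcr1), Il8rb (Cxcr2) and Blr1 (Cxcr5) were also near background. The brighter Il8rb probe read 82.4 on HFD+NDGA, 74.9 on HFD, 57.3 in ob/ob+NDGA, 105 in ob/ob and 46.6 on WT chow, and Blr1 read 133 in ob/ob+NDGA against 34.5 in ob/ob.

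**Figure D4:**
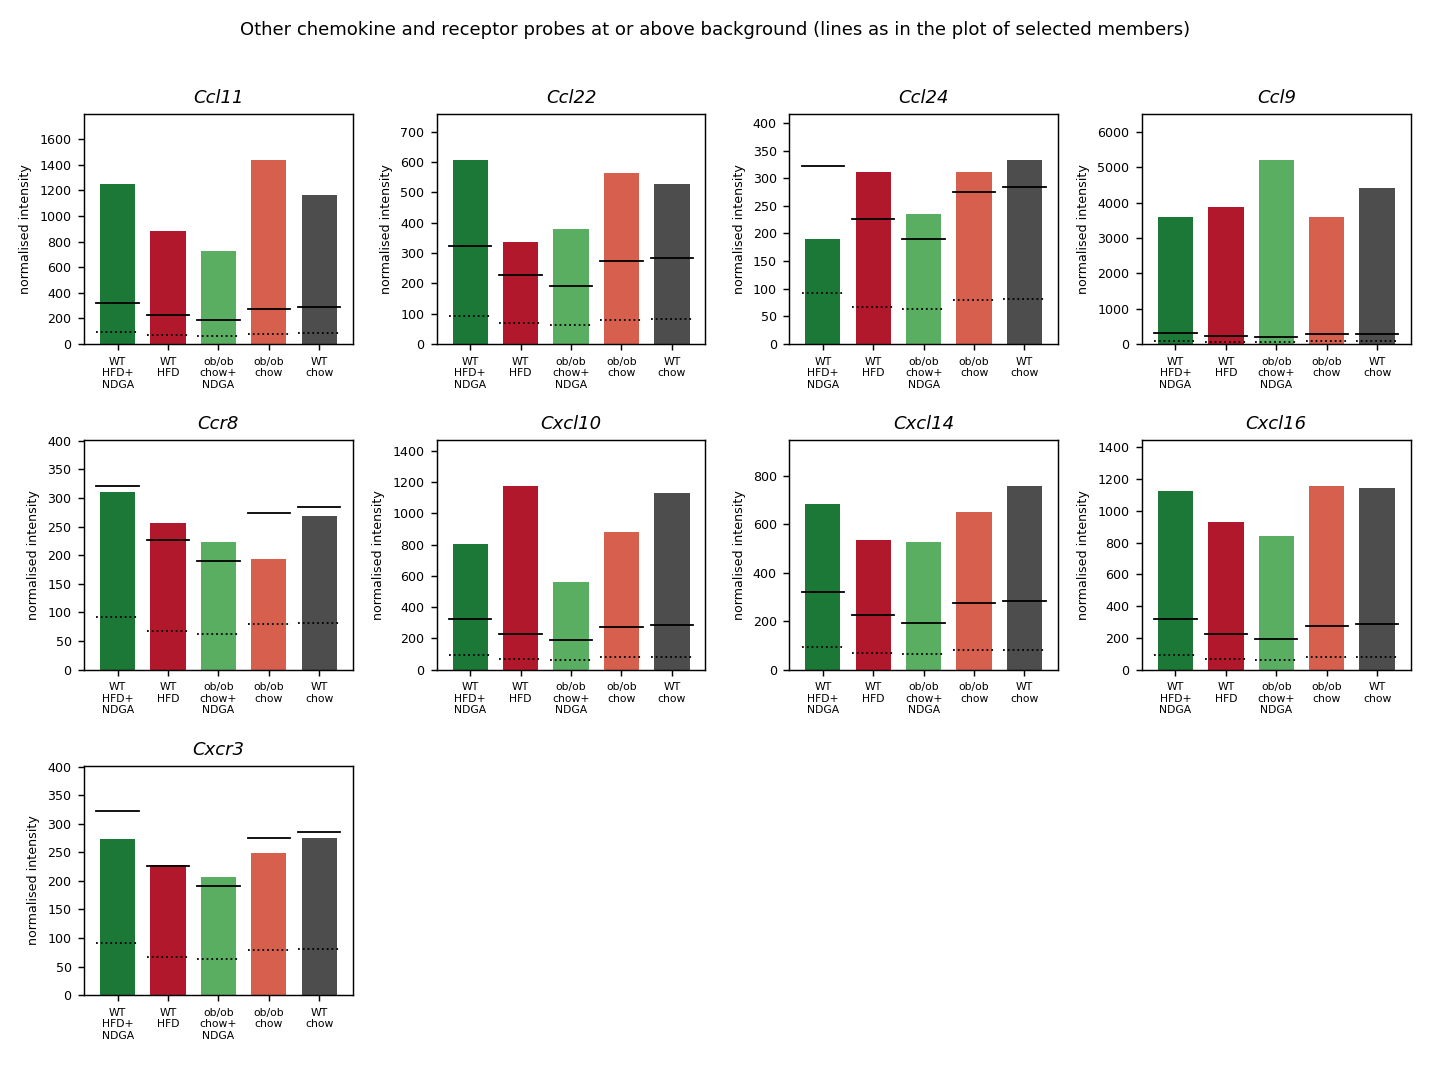
Normalised intensity (y axis, arbitrary units, linear from 0) on the 5 arrays (x axis), 1 array per bar, of the 9 other members at or above the 90th percentile (solid line) of olfactory and vomeronasal receptor probes on at least 1 array; the dotted line is their 75th percentile. Cxcr3 and Ccr8 reached the solid line on 2 arrays each, and Ccl9 far above it (3587 to 5206).

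Genes around the chemokine pathway were counted from lists. Beside the list counts here and below, all genes at least 2-fold apart with HFD were 1.16% higher and 0.691% lower. With NDGA on HFD the shares were 0.493% higher and 0.835% lower, and in ob/ob 0.595% and 0.986%. With NDGA in ob/ob they were 3.78% and 0.283%. Nothing is read from list counts of 0 or 1. Of 7 named scavenger and related receptors, 0 were 2-fold apart in any of the 4 comparisons; Ackr2, which clears CC ligands, read 314 to 431 and Ccrl2 655 to 927. Of 41 named signalling genes downstream of the receptors, 1 was higher and 1 lower with HFD. They were Rgs16, which shortens G protein signals (1.21, and 1.30 in ob/ob), and Gnai1, an inhibitory G protein subunit (-1.55, and -2.16 in ob/ob). With NDGA on HFD 0 of the 41 were apart in either direction, and with NDGA in ob/ob 1 was higher, Gnai2 (1.59), and 0 lower.

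Of 31 named inducers of chemokines, Il1a, the interleukin-1 alpha gene, was higher with HFD (1.54) and in ob/ob (1.20). It read 145 on HFD+NDGA, 157 on HFD, 250 in ob/ob+NDGA, 114 in ob/ob and 21.3 on WT chow. Only the ob/ob+NDGA value was above background, so both differences lay between values near background. Fos, near background throughout, was the 1 inducer lower with NDGA on HFD (19.2 on HFD+NDGA against 101 on HFD). Rela, an NF-kB subunit, was the 1 higher with NDGA in ob/ob (1.14), where its ob/ob value of 61.6 was near background. Tnf read 396 on HFD+NDGA against 194 on HFD, the latter near background. Among 16 named adhesion genes, Vcam1, the endothelial ligand of leukocyte integrins, read 1103 on HFD+NDGA, 2066 on HFD, 2610 in ob/ob+NDGA, 2576 in ob/ob and 847 on WT chow. It was higher with HFD (1.24) and in ob/ob (1.55). Icam1, near background, was higher in ob/ob (1.02) and lower with NDGA on HFD (-1.12).

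Marker lists of other cell types were counted the same way, beside the same shares of all genes. T cell (10 named), B cell (7), NK cell (9) and dendritic cell (8) markers had 0 genes at least 2-fold apart in any comparison, and 3, 2, 1 and 1 of them were above background on any array. The 1 dendritic cell marker above background was Ccl22, itself a member described above, so no separate dendritic cell marker was measurable. The T cell sum was 3806 on HFD+NDGA, 3099 on HFD, 2656 in ob/ob+NDGA, 3019 in ob/ob and 3134 on WT chow. Stellate cell markers had 4 of 11 higher with HFD, 2 lower with NDGA on HFD and 3 higher in ob/ob, and of 10 sinusoidal endothelial markers 1 was higher in ob/ob, Lyve1 (1.21). Among 7 bile duct markers, Spp1, which encodes osteopontin and is also made by macrophages, was higher with HFD (1.21) and in ob/ob (1.36) and lower with NDGA on HFD (-1.27).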

How the data were processed

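Liver RNA was measured on 5 single-colour arrays, 1 per group, as placed by the sample titles. From their range, the deposited values are intensities on a linear scale. Per the labels the dye was Cy5; the sources used here do not give the authors' scanner, background subtraction or scaling. Of 29922 probes, 21020 had 1 symbol in the platform annotation and 8902 were unnamed; 17558 symbols were current in RefSeq GRCm38.p6, 3410 were updated through a unique synonym and 52 kept, giving 16637 genes. Values were quantile normalised over the 5 arrays (their medians differed by 0.46 on the log2 scale after adding 50), log2(value + 50) was taken, and 2-fold differences were counted over all members with no filter on dim genes. No member reached the scanner's pile-up above 65000. The number of arrays limits the precision, and no replicates exist. The members and lists were chosen with earlier results of these data known. Named are the members at least 2-fold apart in any comparison, a fixed set of well-known ones, and list genes at least 2-fold apart. Some list genes under 2-fold are also named, outside that rule, among them Irf1, Irf3, Irf7, Ifng, Ifnb1, Tnf, Ackr2 and Ccrl2. Ccr10 and other dim members are named to account for all 48. A planned floor, loess, filters, probe means and an offset of 16 were alternatives. The steps were tested on simulated data. Python 3.11.15, numpy 2.4.6, pandas 2.3.3, scipy 1.17.1, statsmodels 0.14.6 and matplotlib 3.10.9 were used.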

Additional observations from a re-analysis of the deposited data

How the results depend on the processing

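No paired analysis was possible because each group had 1 array, and no replicate could be left out. No difference of at least 2-fold changed sign under the 7 to 11 alternatives that gave it a value. Some of these could not change it. Filters on brightness or background keep the difference as it was, and so do probe means, because these genes have 1 probe each. The floor also left values above it unchanged. Among members with 2 probes, Cxcl9 was at -0.73 and -1.52 for NDGA on HFD. Whether it counts as 2-fold lower there therefore depends on the probe used. Cxcl1 stayed between 1.42 and 1.48 for HFD and between -1.30 and -1.19 for NDGA on HFD, and Ccl6 between 1.11 and 1.45 in ob/ob. With an offset of 16, 5 members were at least 2-fold higher with HFD and the same 5 lower with NDGA on HFD (Ccl2, Ccl3, Ccl4, Cxcl1 and Pf4), against 2.18% and 1.66% of all genes. Keeping genes above the 75th percentile of mean brightness (10 members left), or only members above background on at least 1 array (13 left, chosen after seeing the data), the count was 1 higher with HFD (Cxcl1; 3.08% and 2.77% of all genes), 1 lower with NDGA on HFD (Cxcl1; 2.24% and 2.02%), 1 higher in ob/ob (Ccl6; 1.61% and 1.31%) and 0 higher with NDGA in ob/ob (6.90% and 8.60%), fewer because fewer genes were counted. Ccl6 entered the second of these only through arrays where it was high, so its call there is no support. Keeping those above the median (17 left) the last count was also 0 (6.67%). Without normalisation, or with each array centred on its median, 2 were higher with NDGA in ob/ob (Ccl9 and Pf4), against 18.4% and 7.84% of all genes. In that comparison leaving out normalisation moved the median of all genes to 0.36 and that of the members to 0.19. There 19 of 48 members had the other sign. Leaving the HFD with NDGA array or the NDGA-treated ob/ob array out of the normalisation, also chosen after seeing the data, moved no count past 1.5 times. With the median of all probes as the background line, 23 members in place of 35 were near background on all 5 arrays, against 34.6% of all genes. The cause of these shifts was not tested.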
